A study of Mus musculus with 36 samples.

Results

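Sugar and monocarboxylate carriers of the kidney tubule were followed in whole-kidney RNA from C57BL/6 mice. The genes were chosen by symbol: Slc5a1, Slc5a2, Slc5a8, Slc5a10, Slc5a11, Slc5a12, Slc2a1 and Slc2a2, which are 8 of the 18049 genes listed. RNA came from 12 groups of 3 mice, with 1 library per mouse and 36 libraries in all. WT mice carried neither mutation. Pkd1-RC/RC mice were homozygous for RC, a reduced-function point allele of Pkd1, the gene of polycystin-1. Pkhd1-/- mice were homozygous for a mutation of Pkhd1, the gene of fibrocystin. Digenic mice had both genotypes together. Each of the 4 genotypes was sampled at birth and on postnatal days 3 and 12 (P0, P3 and P12). The RNA of a whole kidney pools all its cell types, so that fewer cells of a type and less RNA per cell cannot be told apart.

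The proximal tubule takes filtered glucose back from the urine. Sodium-coupled carriers of the SLC5 family bring it into the cell across the brush border, and facilitative carriers of the SLC2 family let it leave on the blood side. Slc5a2 encodes SGLT2, which takes up most of the filtered glucose in the early segments, and Slc5a1 encodes SGLT1, which recovers the remainder further down. Slc2a2 encodes GLUT2, the exit carrier of the early segments, and Slc2a1 encodes GLUT1, an exit carrier of later segments that many other cell types also make. The remaining genes carry other small solutes: SGLT5, from Slc5a10, takes up mannose and fructose, SMIT2, from Slc5a11, takes up myo-inositol, and the products of Slc5a8 and Slc5a12 take up lactate and other monocarboxylates. The set therefore holds carriers of glucose, of other sugars and polyols, and of lactate, and not of glucose alone.

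Positions are those of the deposited table in mm10, and the GENCODE M21 annotation gives each gene as protein coding. Slc5a2 (ENSMUSG00000030781) lies at chr7:128265657-128272430 on the plus strand, and Slc5a11 (ENSMUSG00000030769) lies on the same strand at chr7:123214780-123273253. Slc5a1 (ENSMUSG00000011034) lies at chr5:33104219-33162872, Slc5a8 (ENSMUSG00000020062) at chr10:88885992-88929505 and Slc5a12 (ENSMUSG00000041644) at chr2:110597298-110647779, each on the plus strand. Slc5a10 (ENSMUSG00000042371) lies at chr11:61672781-61720826 on the minus strand. The SLC2 genes are on the plus strand, Slc2a2 (ENSMUSG00000027690) at chr3:28697903-28728363 and Slc2a1 (ENSMUSG00000028645) at chr4:119108711-119137330. Some of these genes share exonic bases with a neighbour on the opposite strand: Slc5a2 shares 597 of its 2897 exonic bases with BC017158, Slc5a10 shares 393 of 2365 with Fam83g and 4 with Grap, and Slc2a1 shares 105 with Gm12868. The sources used here do not give the strand setting of the counting, so it is uncertain which gene the reads over these shared bases belong to.

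RefSeq promoters (GRCm38.p6) were held for 6 of the 8 genes. Those of Slc5a10, the gene that was higher in Digenic kidneys at P12, and of the exit carrier Slc2a2, which was not called there, are shown 5′ to 3′ up to the annotated start of the gene. Capitals mark a nuclear receptor half-site (AGGTCA, on either strand).
Slc5a10, chr11:61720827-61721049, minus strand: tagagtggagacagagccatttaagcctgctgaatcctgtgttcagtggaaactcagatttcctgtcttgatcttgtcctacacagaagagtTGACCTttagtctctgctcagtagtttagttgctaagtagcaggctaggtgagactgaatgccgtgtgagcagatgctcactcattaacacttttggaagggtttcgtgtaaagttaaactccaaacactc
Slc2a2, chr3:28697653-28697902, plus strand: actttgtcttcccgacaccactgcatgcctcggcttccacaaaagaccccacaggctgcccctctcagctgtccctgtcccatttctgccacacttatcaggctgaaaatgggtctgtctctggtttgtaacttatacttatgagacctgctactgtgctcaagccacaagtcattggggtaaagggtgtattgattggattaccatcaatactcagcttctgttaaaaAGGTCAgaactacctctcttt
In the 250 bases before the RefSeq start, which for Slc5a10 reach past the end of the stretch shown, AGGTCA was found in 3 of the 6 genes (Slc2a2, Slc5a10 and Slc5a11) and in 14.0% of all 32851 promoters in the table. The hypoxia response core ACGTG, on either strand, was found in 2 of the 6 (Slc2a1 and Slc5a1) and in 16.6% of all. A gene counted once if any of its promoters matched, whereas the shares of all are per promoter, so these shares differ in unit. These are matches of letters and not measured binding sites.

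The smallest library held 51411240 counts and the largest 80789299. The 8 genes had from 548 to 35425 counts in any library, and all 8 passed the filter on low counts in every comparison. Levels are RPKM, reads scaled by exon length and library total, with library totals scaled by TMM factors. In 2 libraries the column header differs from the sample label, which was used here: the header of Digenic P12 mouse 1 has P3, and that of Pkd1-RC/RC P12 mouse 2 has Pkhd1. The first of these had 36.6 RPKM of Slc5a12, above the highest P3 library of any genotype at 17.2 RPKM. The second had 16.3 RPKM of Pkhd1, among WT kidneys of that age at 12.4 to 17.4, whereas Pkhd1 was at 0.412 to 1.42 in all Pkhd1-/- libraries and at 0.667 to 2.29 in all Digenic ones. The Pkd1 allele is a point change, so the level of Pkd1 RNA checks no label. Summed RPKM of 6 adrenal marker genes was over 40 in 8 libraries, among them Digenic P12 mice 2 and 3 and Pkhd1-/- P12 mouse 3. Results called in comparisons at P3 and P12 with these libraries are also given without them.

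In WT kidneys the carriers differed in both level and timing. At P0 Slc2a1 had the highest level, 48.6 ± 5.02 RPKM (SD, n = 3), followed by Slc5a8 with 35.9 ± 5.77. Slc5a2 (19.4 ± 3.89), Slc2a2 (16.6 ± 4.36), Slc5a10 (14.8 ± 2.40) and Slc5a1 (14.4 ± 2.34) came next, and the libraries of neighbours among these 4 overlapped. Slc5a11 (7.02 ± 1.18) and Slc5a12 (3.95 ± 2.05) were lowest, and their libraries overlapped too. At P3 Slc5a10 had the highest mean, 50.7 ± 24.7, but its libraries overlapped those of Slc5a2 (34.7 ± 2.27). By P12 Slc5a2 stood alone at the top with 143 ± 13.6 RPKM. Slc5a12 (47.2 ± 10.2), Slc2a2 (46.7 ± 0.883) and Slc5a8 (45.1 ± 3.76) overlapped one another, and Slc2a1 (36.5 ± 2.61), Slc5a10 (25.7 ± 3.61), Slc5a1 (24.4 ± 1.26) and Slc5a11 (10.1 ± 1.0) followed.

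**Figure D1:**
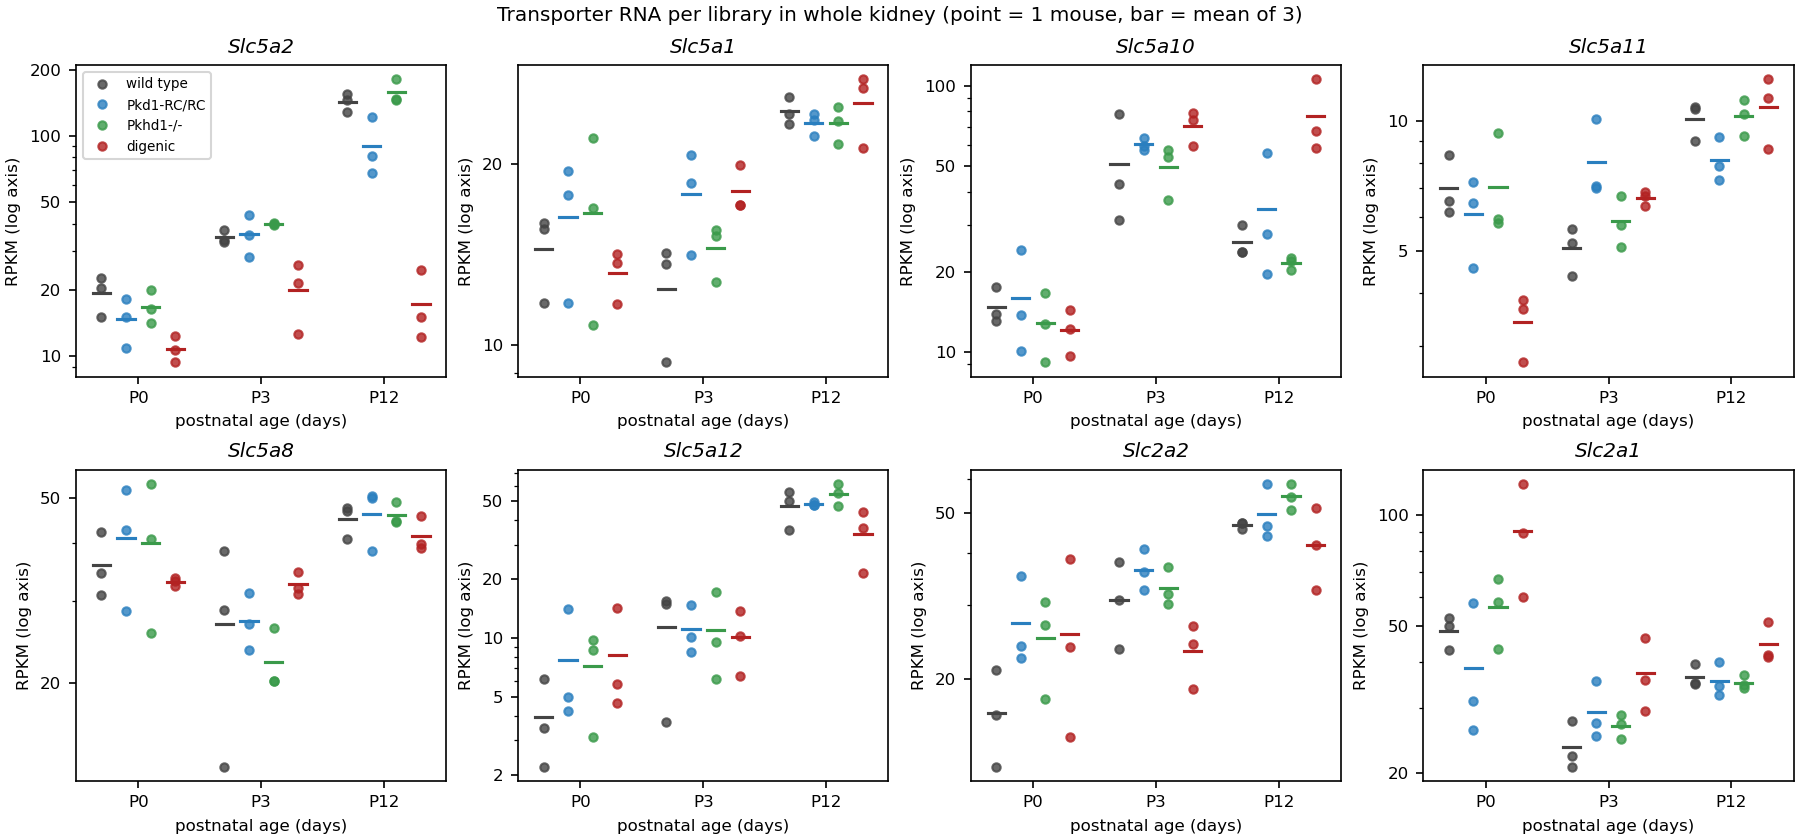
RPKM on a log axis of the 8 carrier genes in each library at P0, P3 and P12, by genotype; points are mice and bars are means of 3. Slc5a2 climbs to 128 to 155 RPKM in WT kidneys at P12 while the Digenic kidneys lie between 12.3 and 24.6, and Slc5a10 in Digenic kidneys at P12 lies between 58.5 and 106.

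The SGLT2 gene Slc5a2 rose at each step of WT development. It had 20.3, 22.8 and 15.2 RPKM in the P0 mice, 33.0, 33.9 and 37.3 at P3 and 128, 146 and 155 at P12, with no overlap between ages. The log2 fold change was 0.84 ± 0.24 (SE) from P0 to P3 (adjusted p = 0.0136), 2.04 ± 0.25 from P3 to P12 (adjusted p = 3.66e-07) and 2.88 ± 0.26 over the whole period (adjusted p = 8.35e-10). The monocarboxylate carrier gene Slc5a12 had 6.21, 3.45 and 2.20 RPKM at P0, 15.5, 3.72 and 14.9 at P3 and 49.9, 35.8 and 55.7 at P12. Its rise of 3.58 ± 0.59 from P0 to P12 (adjusted p = 2.27e-05) was the largest of the 8, and P3 mouse 2 was near the P0 level. The exit carrier gene Slc2a2 rose by 1.49 ± 0.26 on the log2 scale from P0 to P12 (adjusted p = 2.45e-05), from 16.5, 21.1 and 12.4 RPKM to 47.1, 47.2 and 45.7.

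Slc5a10 did not follow this course. It rose from 13.0, 17.5 and 13.8 RPKM at P0 to 42.6, 31.2 and 78.5 at P3 (log2 fold change 1.78 ± 0.34, adjusted p = 0.00075) and then fell to 23.6, 23.7 and 29.9 at P12 (-0.98 ± 0.33, adjusted p = 0.0236). Slc2a1 took the opposite path: it fell from 50.1, 52.7 and 43.0 RPKM at P0 to 22.3, 27.6 and 20.8 at P3 (-1.04 ± 0.23, adjusted p = 0.00187) and rose to 35.1, 39.5 and 34.9 at P12 (0.63 ± 0.23, adjusted p = 0.0302). Slc5a1 (0.98 ± 0.19, adjusted p = 0.000251), Slc5a11 (1.0 ± 0.19, adjusted p = 0.000173) and Slc5a8 (0.75 ± 0.25, adjusted p = 0.0196) rose only in the step from P3 to P12, in that none was called from P0 to P3. Their log2 fold changes in the earlier step were -0.22 ± 0.19, -0.47 ± 0.19 and -0.42 ± 0.25.

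In count, 4 of the 8 genes rose and 1 fell from P0 to P3, when 24.7% of all genes were called, and 6 rose and 1 fell from P3 to P12, when 35.5% were called. From P0 to P12, 6 rose and none fell, against 49.8% of all genes called in either direction. The median log2 fold change of the 8 was 0.31, 0.86 and 0.78 in these comparisons, beside 0.01, 0.03 and 0.02 over all genes. Over the whole period 9 of 12 early proximal tubule genes rose and 1 fell, and 8 of 11 late ones rose and 1 fell. Of the partners of glucose and lactate transport, 6 of 14 rose and 3 fell.

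Several of these age calls depended on single mice. Without WT P0 mouse 3, the P0 to P3 calls of Slc5a2 (0.69), Slc2a2 and Slc5a12 were lost, and those of Slc2a2 and Slc5a12 were also lost without WT P3 mouse 1 (Slc2a2 0.71 to 0.72). That of Slc5a12 was further lost without WT P0 mouse 2 or P3 mouse 3, the 4 values lying between 1.24 and 1.45. From P3 to P12, the call of Slc5a10 was lost without WT P3 mouse 3 or P12 mouse 1 or 2 (-0.96 to -0.57), that of Slc5a8 without P3 mouse 2 or P12 mouse 1 or 3 (0.42 to 0.71), and that of Slc2a1 without P3 mouse 1 or 3 or any P12 mouse (0.50 to 0.66). Slc2a2 was called there only without P3 mouse 1 (0.73). Over the whole period Slc5a10 (0.80 ± 0.34, adjusted p = 0.0493) lost its call without P0 mouse 1 or 3 or any P12 mouse (0.68 to 0.85), and Slc5a11 (0.53 ± 0.19, adjusted p = 0.0215) without mouse 2 or 3 of either age (0.45 to 0.49). Slc5a1 (0.76 ± 0.19, adjusted p = 0.00182) kept its call in each of these fits. Slc5a8 (0.33 ± 0.25) and Slc2a1 (-0.41 ± 0.23) were not called over the whole period.

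In Digenic kidneys at P12 the gene for SGLT2 was 8.28-fold lower than in WT. Slc5a2 had 12.3, 24.6 and 15.0 RPKM in the Digenic mice (17.3 ± 6.45, SD, n = 3) against 128, 146 and 155 in the WT mice (143 ± 13.6). Every Digenic library was below every WT library, and 2 of the 3 were below the lowest WT library at P0, which had 15.2 RPKM. The log2 fold change was -3.05 ± 0.28 (edgeR, adjusted p = 6.43e-05), the 16th lowest of 18002 genes tested, and the authors' deposited table gives -3.05 for the same gene. Leaving out Digenic mouse 1, whose header has another age, gave -2.85, and leaving out the libraries with adrenal markers gave -3.52. The latter leaves Digenic mouse 1 alone in its group, and its spread is then taken to be that of the other groups.

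Slc5a10, the mannose and fructose carrier gene, moved the opposite way. It had 106, 67.5 and 58.5 RPKM in Digenic mice (77.2 ± 25.0) against 23.6, 23.7 and 29.9 in WT mice (25.7 ± 3.61), with no overlap. Its log2 fold change was 1.58 ± 0.36 (adjusted p = 0.0114), a 2.99-fold rise. Without Digenic mouse 1, the highest of them, it was 1.29, and without the libraries with adrenal markers it was 2.05. The Digenic level at P12 was close to that of the Digenic mice at P3 (78.8, 74.5 and 59.1 RPKM), whereas the WT level fell between those ages.

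The other carriers changed little or not measurably. SGLT1 RNA (Slc5a1) was 27.6, 21.2 and 26.7 RPKM in Digenic mice and 23.3, 24.2 and 25.8 in WT mice, with a log2 fold change of 0.04 ± 0.10. Slc5a11 (0.09 ± 0.14), Slc5a8 (-0.12 ± 0.11) and Slc2a2 (-0.16 ± 0.14) were also not called, with adjusted p-values between 0.462 and 0.683. Slc2a2 spread more widely in Digenic mice, at 41.9, 32.7 and 51.2 RPKM, than in WT mice at 45.7 to 47.2. Slc5a12 had 36.6, 21.5 and 44.1 RPKM in Digenic mice against 35.8 to 55.7 in WT (log2 fold change -0.47 ± 0.23, adjusted p = 0.16). The GLUT1 gene Slc2a1 had 41.7, 41.3 and 51.2 RPKM against 34.9 to 39.5, with no overlap, and its log2 fold change of 0.29 ± 0.10 just missed the threshold (adjusted p = 0.0527). It passed without WT mouse 2 or Digenic mouse 1 or 2 (0.34 to 0.36), and also with DESeq2, with RLE size factors, with no filter on low counts and with a sex term (0.29 to 0.30). Without the libraries with adrenal markers it did not (0.21). In all, 1 of the 8 genes rose and 1 fell, where 23.0% of all genes tested were called; the median of the 8 was -0.04 and that of all genes -0.01.

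The order of the carriers was thereby changed. Slc5a2 was first of 8 by mean RPKM in WT kidneys at P12 and 7th of 8 in Digenic kidneys, where Slc5a10 was first. The Digenic libraries of Slc5a2 overlapped those of its neighbours in that order, Slc5a1 and Slc5a11. The ratio of Slc5a2 to Slc5a1 RPKM was 5.50, 6.04 and 6.00 in WT mice and 0.446, 1.16 and 0.563 in Digenic mice. The ratio of Slc5a2 to Slc5a10 was 5.42, 6.17 and 5.17 in WT mice and 0.116, 0.364 and 0.257 in Digenic mice. That of Slc5a2 to the exit carrier Slc2a2 was 2.72, 3.09 and 3.39 in WT mice and 0.294, 0.752 and 0.293 in Digenic mice. None of these 3 ratios overlapped between the genotypes.

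**Figure D2:**
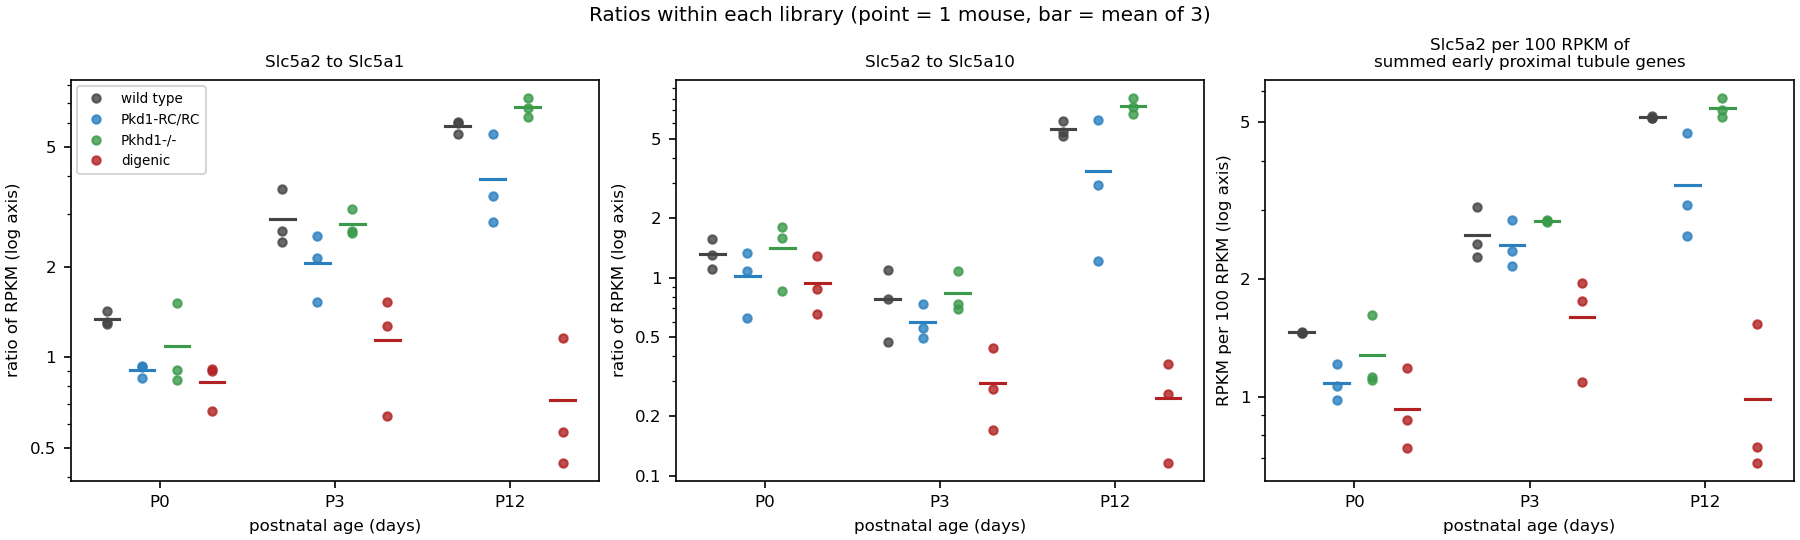
Ratios within each library, on log axes, of Slc5a2 RPKM to Slc5a1 RPKM, to Slc5a10 RPKM and per 100 RPKM of the summed early proximal tubule genes, by age and genotype; points are mice and bars are means of 3. At P12 the ratio of Slc5a2 to Slc5a1 is 5.50 to 6.04 in WT and 0.446 to 1.16 in Digenic mice.

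Some other genes of the proximal tubule were also lower in Digenic kidneys at P12, where 23.0% of all genes tested were called in either direction. Of 12 early proximal tubule genes, 6 fell and none rose, with a median of -0.47: the phosphate carriers Slc34a1 (-0.97, adjusted p = 0.000142) and Slc34a3 (-2.14, adjusted p = 0.000147), the basolateral amino acid exchanger Slc7a8 (-0.88), the creatine synthesis enzyme Gatm (-0.97), the organic anion carrier Slc22a8 and the endocytic receptor Lrp2. Of 11 late proximal tubule genes, 3 fell (Slc7a13 -1.21, Aadat -0.95 and Slc22a13 -0.53) and 1 rose (Cyp7b1 0.89). The summed RPKM of the early list was 1602 to 2024 in Digenic mice and 2492 to 2974 in WT mice, and Slc5a2 per 100 RPKM of that sum was 0.680, 1.53 and 0.743 against 5.14, 5.14 and 5.20. Slc5a10 per 100 RPKM of the summed late list was 7.75, 7.54 and 5.23 in Digenic mice and 1.80, 1.61 and 1.86 in WT mice. Markers of other parts of the kidney differed as well. Of 8 intercalated and collecting duct genes, 4 rose (Aqp2, Aqp3, Scnn1b and Scnn1g) and 1 fell, the proton pump gene Atp6v1b1 of intercalated cells (-0.39). The intercalated cell genes Slc4a1 (-0.74) and Slc26a4 (-0.53) were not called, nor was Foxi1, which lay in the other direction (0.28). The summed RPKM of the 8 genes was 1473 to 1937 in Digenic mice and 471 to 595 in WT mice. Of this, Aqp2 made up 986 to 1418 and 170 to 260. The 6 loop and distal genes summed to 772 to 854 against 1208 to 1269. The part of these shifts in the carrier results was not tested.

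**Figure D3:**
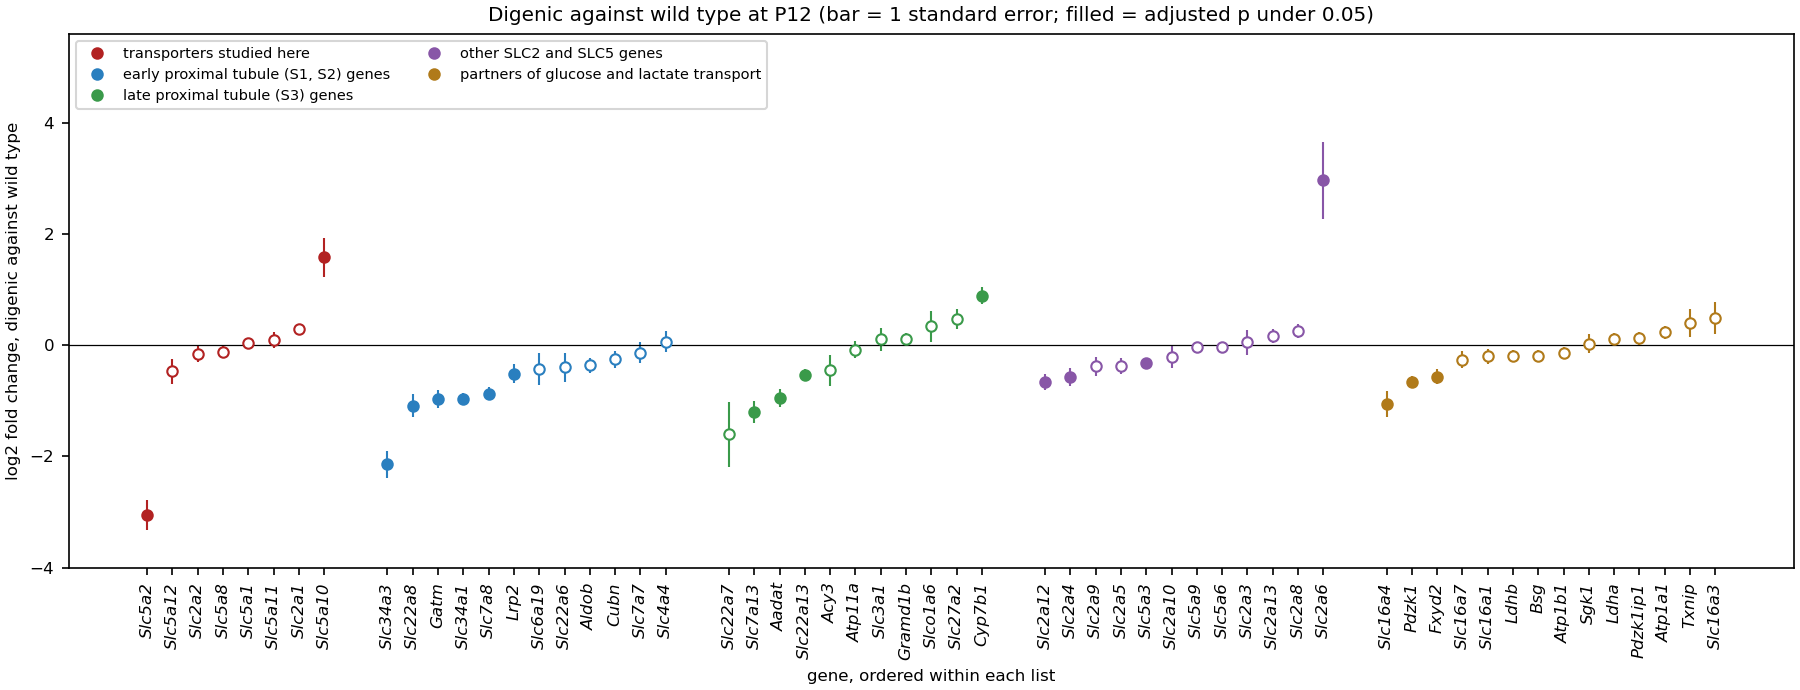
Log2 fold change of Digenic against WT at P12 for the 8 carriers and 4 gene lists; bars are 1 standard error and filled points have an adjusted p under 0.05. Slc5a2 is the lowest point at -3.05, below Slc34a3 at -2.14, and most other carriers lie near 0.

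The rest of the SLC2 and SLC5 families, 12 genes measured, held 3 that fell and 1 that rose, beside the 23.0% called among all genes. The glucose carrier gene Slc2a12 (-0.65, adjusted p = 0.006), the insulin-responsive Slc2a4 (-0.57) and the myo-inositol carrier gene Slc5a3 (-0.33) fell. Slc2a6 rose by 2.96 ± 0.69 (adjusted p = 0.0104) from a low level, with 2.12, 0.183 and 0.657 RPKM in Digenic mice and 0.0784 to 0.177 in WT mice. Digenic mouse 2 was near the WT range and mouse 1 was the highest. Among 14 partners of glucose and lactate transport 3 fell, a share close to that of all genes: the scaffold gene Pdzk1 (-0.65), Slc16a4 of the monocarboxylate carrier family (-1.06) and Fxyd2, a subunit of the sodium pump (-0.57). Pdzk1ip1, whose product MAP17 is the accessory protein of SGLT2, had 301, 250 and 260 RPKM in Digenic mice and 224, 289 and 231 in WT mice (0.12 ± 0.12, adjusted p = 0.492). Of the regulators listed, Hnf4a was not called, with a log2 fold change of -0.15 ± 0.13 (adjusted p = 0.445).

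The opposite-strand neighbours of Slc5a2 and Slc5a10 with the largest shared stretches changed in the same direction as those carriers. BC017158, opposite Slc5a2, fell by 1.84 on the log2 scale in Digenic kidneys at P12, from 26.5 to 37.0 RPKM in WT mice to 7.56 to 10.6. Fam83g, opposite Slc5a10, rose by 1.16, from 3.63 to 4.58 RPKM to 7.38 to 11.4. Grap, which shares 4 bases with Slc5a10, fell by 0.85. In WT mice at P12 the level of Slc5a2 was 143 RPKM and that of BC017158 32.0, and Slc5a10 was at 25.7 beside 3.95 for Fam83g; the share of these reads that comes from the opposite strand was not tested.

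Neither mutation by itself gave a called change in any of the 8 genes at any age. Against WT, 0 of 8 were called by edgeR in Pkd1-RC/RC mice at P0, P3 and P12, where 0.0166%, 0.0443% and 0.267% of all genes were called, and 0 of 8 in Pkhd1-/- mice, where 0.0166% were called at P3, 0.0111% at P0 and 0.0333% at P12. At an unadjusted p under 0.05 there were 1, 2 and 2 genes in Pkd1-RC/RC mice, beside 1880, 805 and 1343 of all genes. In Pkhd1-/- mice there were 0 at each age, beside 849, 396 and 793. DESeq2 called 1 gene (Slc5a11), in Pkd1-RC/RC mice at P3, beside 65 of all genes. It called 0 in the other 5 comparisons, beside 9 to 163 of all genes. Slc5a2 in Pkd1-RC/RC mice at P12 had 122, 81.1 and 68.0 RPKM, each below the lowest WT library at 128, with a log2 fold change of -0.66 ± 0.26 (adjusted p = 0.598). Without mouse 2 of that group, whose header names the other gene, it was -0.58. Slc5a10 in the same mice had 19.6, 27.6 and 55.9 RPKM, and mouse 3, with the highest Slc5a10, had the lowest Slc5a2 of the group. In Pkhd1-/- mice at P12 Slc5a2 had 146, 181 and 148 RPKM (0.14 ± 0.25) and Slc5a10 had 21.9, 22.4 and 20.3.

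**Figure D4:**
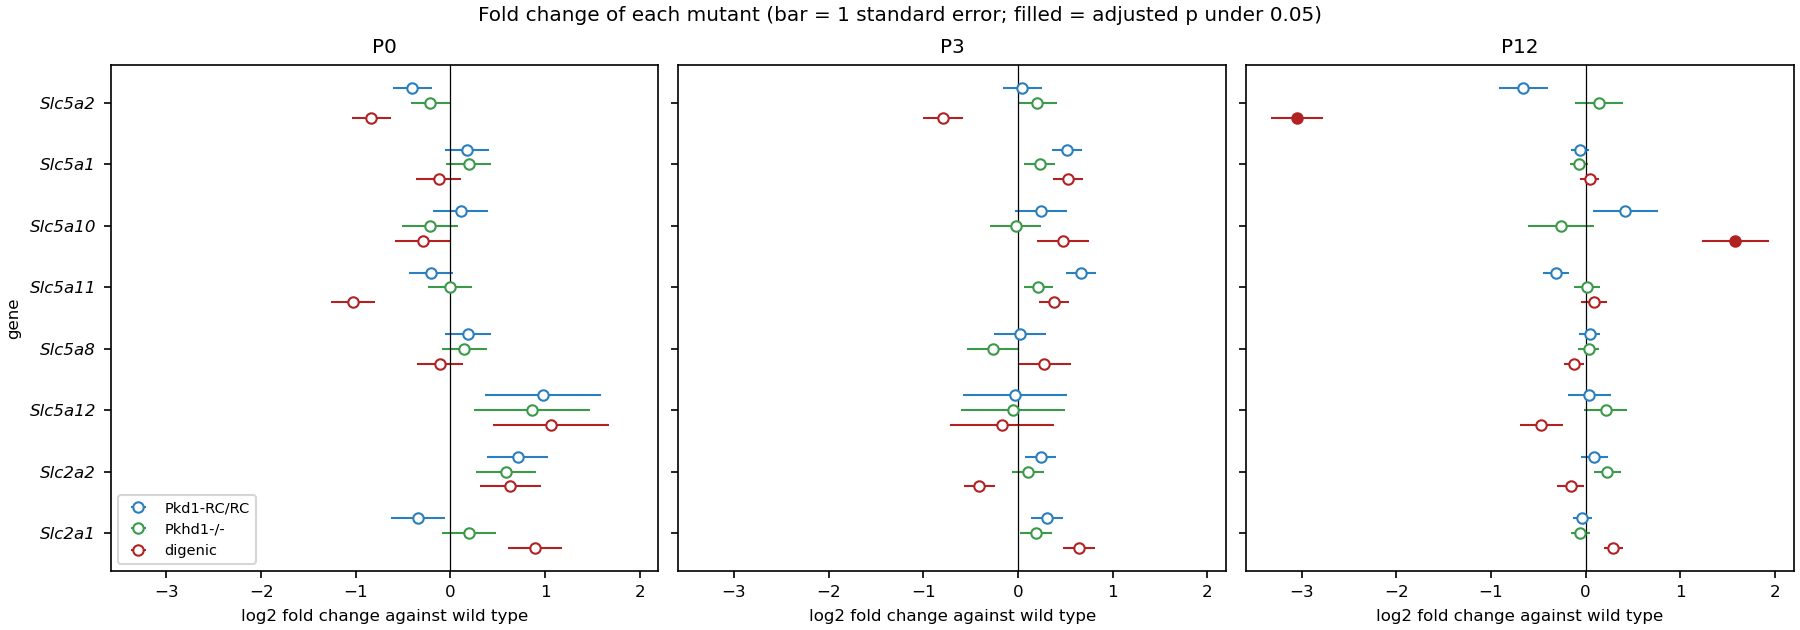
Log2 fold change of Pkd1-RC/RC, Pkhd1-/- and Digenic kidneys against WT of the same age for the 8 carriers; bars are 1 standard error and filled points have an adjusted p under 0.05. The filled points are Slc5a2 at -3.05 and Slc5a10 at 1.58, both in Digenic kidneys at P12.

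Against each single mutant, the Digenic kidneys at P12 differed in Slc5a2 and Slc5a10 in the same directions. The comparisons share the Digenic libraries and are given side by side. The log2 fold change of Slc5a2 was -2.39 ± 0.27 against Pkd1-RC/RC mice (adjusted p = 0.000514) and -3.19 ± 0.28 against Pkhd1-/- mice (adjusted p = 3.56e-05), with no overlap in either. Slc5a10 was higher by 1.16 ± 0.35 than in Pkd1-RC/RC mice (adjusted p = 0.0451) and by 1.84 ± 0.36 than in Pkhd1-/- mice (adjusted p = 0.0046). Slc2a1 was higher by 0.32 ± 0.10 (adjusted p = 0.0383) and 0.35 ± 0.10 (adjusted p = 0.0209), and Slc5a12 was called against Pkhd1-/- mice (-0.68 ± 0.23, adjusted p = 0.0439). That made 2 genes up and 1 down against Pkd1-RC/RC mice, where 19.5% of all genes were called, and 2 up and 2 down against Pkhd1-/- mice, where 28.2% were called.

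The calls of Slc5a2, and that of Slc5a10 against Pkhd1-/- mice, held without each mouse in turn, and the others did not. Against Pkd1-RC/RC mice Slc5a10 was not called without Pkd1-RC/RC mouse 1 or 2 or any Digenic mouse (0.87 to 1.32), and Slc2a1 was not called without Pkd1-RC/RC mouse 1 or 3 or Digenic mouse 3 (0.21 to 0.32). By their RNA all Pkd1-RC/RC mice of P12 were male, whereas Digenic mice 1 and 2 were male and mouse 3 was female. With sex as a term neither Slc5a10 (1.21) nor Slc2a1 (0.26) was called in this comparison. Slc5a11 was called against Pkd1-RC/RC mice without Pkd1-RC/RC mouse 1 or Digenic mouse 2 (0.53 to 0.56, with 0.41 over all mice). Against Pkhd1-/- mice Slc2a1 was not called without Pkhd1-/- mouse 2 or 3 or Digenic mouse 3 (0.24 to 0.34), nor Slc5a12 without any Pkhd1-/- mouse or Digenic mouse 1 or 2 (-0.78 to -0.44). Without the libraries with adrenal markers Digenic mouse 1 is alone in its group, so that only the log2 fold changes are given. Slc5a2 was then at -2.87 against Pkd1-RC/RC and -3.72 against Pkhd1-/- mice. In the same order Slc5a10 was at 1.63 and 2.26, and Slc2a1 at 0.24 and 0.23. Slc5a12 was at -0.67 against Pkhd1-/- mice, and Slc5a11 at 0.63 against Pkd1-RC/RC mice. Slc2a2 (-0.55) without Digenic mouse 3 and Slc5a1 (0.22) without Digenic mouse 2 were called against Pkhd1-/- mice, with -0.38 and 0.11 over all mice.

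The departure from the sum of the single changes was tested at each age. At P12 the Slc5a2 change in Digenic kidneys departed from that sum by -2.54 ± 0.37 on the log2 scale (adjusted p = 0.00568), the only 1 of 8 genes called, where 8.57% of all genes were. Without the libraries with adrenal markers, which leaves Digenic mouse 1 alone in its group, it was -3.07. For Slc5a10 the value was 1.42 ± 0.49 (adjusted p = 0.105), and it was called without Pkd1-RC/RC mouse 3 (1.96). At P0 and P3, 0 of 8 genes were called by edgeR, where 0.00554% and 0% of all genes were. An unadjusted p under 0.05 was found for 2 and 3 of the 8, beside 1067 and 1457 of all genes. DESeq2 called 0 and 1 (Slc5a2), beside 8 and 211 of all genes.

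At P0 and P3 the Digenic kidneys gave no call against WT among the 8 genes, although some libraries did not overlap. How many of all genes had no overlap at these ages was not counted. At P0 Slc5a2 had 12.4, 9.39 and 10.7 RPKM in Digenic mice against 15.2 to 22.8 in WT mice (-0.84 ± 0.21, adjusted p = 0.0833), and Slc5a11 had 3.66, 3.86 and 2.75 against 6.16 to 8.36 (-1.03 ± 0.23, adjusted p = 0.0661). Slc2a1 had 60.0, 89.0 and 121 RPKM against 43.0 to 52.7 (0.89 ± 0.29, adjusted p = 0.165). These 3 had no overlap with WT and were also the 3 with an unadjusted p under 0.05, beside 2950 of all 18035 genes tested. DESeq2 called 2 of them (Slc5a2 and Slc5a11), beside 704 of all genes, and edgeR called 0.671% of all genes. The others had log2 fold changes of 1.07 ± 0.61 (Slc5a12), 0.63 ± 0.32 (Slc2a2), -0.29 ± 0.29 (Slc5a10), -0.12 ± 0.24 (Slc5a1) and -0.11 ± 0.24 (Slc5a8).

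At P3 Slc5a2 had 21.6, 12.6 and 26.1 RPKM in Digenic mice against 33.0 to 37.3 in WT mice, with no overlap (-0.80 ± 0.21, adjusted p = 0.0677). Slc2a1 (0.64 ± 0.17, adjusted p = 0.0648) and Slc5a1 (0.53 ± 0.16, adjusted p = 0.108) were higher in every Digenic library than in any WT library without being called, as was Slc5a11 (0.38 ± 0.16). Slc2a2 (-0.41 ± 0.17), Slc5a10 (0.47 ± 0.27), Slc5a8 (0.28 ± 0.28) and Slc5a12 (-0.17 ± 0.55) overlapped between the groups. With edgeR 0 of 8 were called, where 2.70% of all genes were. At an unadjusted p under 0.05 there were 5, beside 2847 of all 18043 genes tested. DESeq2 called 3 (Slc2a1, Slc5a1 and Slc5a2), beside 1118 of all genes. Slc5a2 was called without Digenic mouse 3, a library with adrenal markers (-1.03), Slc2a1 without WT mouse 2 or Digenic mouse 3 (0.78), and Slc5a10 without WT mouse 3 (0.93). All 3 Digenic mice of P3 were female by their RNA, and with sex as a term Slc5a10 was at 0.13 and Slc5a2 at -0.84, both uncalled. Of the late proximal tubule genes 6 of 11 rose at P3, among them Gramd1b (1.05) and Slc7a13 (1.07), and of the early ones 1 of 12 fell (Slc7a8 -0.67).

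Between the Digenic mice and the single mutants at these ages, 1 gene was called. Slc5a2 at P3 was lower than in Pkhd1-/- mice (log2 fold change -1.0 ± 0.21, adjusted p = 0.0225), which had 39.7, 40.2 and 39.9 RPKM, and 3.49% of all genes were called in that comparison. The call was lost without Digenic mouse 1 or any Pkhd1-/- mouse (-1.05 to -1.0) and with sex as a term (-1.07), and it held without the libraries with adrenal markers (-1.24). By their RNA the 3 Pkhd1-/- mice were male, so that sex and genotype cannot be told apart within this comparison. With edgeR 0 of 8 genes were called against Pkd1-RC/RC mice at P0 and P3, where 0.0388% and 0.460% of all genes were, and 0 of 8 against Pkhd1-/- mice at P0, where 0.244% were. At an unadjusted p under 0.05 there were 2, 2 and 3 genes, beside 909, 1875 and 2688 of all genes. DESeq2 called 1 (Slc2a1), 2 (Slc2a2 and Slc5a2) and 1 (Slc5a11), beside 64, 525 and 502 of all genes. Without Digenic P3 mouse 3, Slc5a2 was called against Pkd1-RC/RC mice at P3 (-1.08, with -0.84 over all mice).

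The Digenic effect itself changed with age for 3 carriers. From P0 to P12 the log2 difference from WT moved by -2.20 ± 0.35 for Slc5a2 (adjusted p = 0.000155), by 1.88 ± 0.48 for Slc5a10 (adjusted p = 0.0135) and by 1.13 ± 0.27 for Slc5a11 (adjusted p = 0.00856), where 8.79% of all genes were called. Without the libraries with adrenal markers these values were -2.69, 2.33 and 1.34. That fit leaves Digenic P12 mouse 1 alone in its group, the mouse with the lowest Slc5a2 and the highest Slc5a10 and Slc5a11 of the 3. The mean Slc5a2 level went from 10.8 to 17.3 RPKM in Digenic mice, a ratio of 1.60, and from 19.4 to 143 in WT mice, a ratio of 7.36. Slc5a10 went from 12.1 to 77.2 RPKM in Digenic mice (6.39-fold) and from 14.8 to 25.7 in WT mice (1.74-fold). Slc5a11 went from 3.42 to 10.8 RPKM in Digenic mice (3.16-fold) and from 7.02 to 10.1 in WT mice (1.45-fold). The other 5 were not called: -1.54 ± 0.77 for Slc5a12, -0.78 ± 0.36 for Slc2a2, -0.60 ± 0.32 for Slc2a1, 0.17 ± 0.27 for Slc5a1 and 0.00 ± 0.35 for Slc5a8. Slc2a2 was called without Digenic P0 mouse 3 (-1.04). With edgeR 0 of 8 genes changed their effect from P0 to P12 in Pkd1-RC/RC mice and 0 of 8 in Pkhd1-/- mice, where 0.00554% and 0% of all genes did. In either, 0 of 8 had an unadjusted p under 0.05, beside 1769 and 1229 of all genes. DESeq2 called 0 of 8 in both, beside 46 and 0 of all genes.

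Mice of the same group varied more in some carriers than in others. The SD was 49.8% to 70.4% of the mean for Slc5a12 in the 4 groups at P0 and 2.0% to 33.7% at P12. For Slc5a1 it was 9.92% to 34.0% at P0 and 4.28% to 13.6% at P12. Slc5a10 kept a wide spread, 5.09% to 55.6% at P12. With group means removed, log2 CPM of the carriers tended to deviate together: 23 of 28 pairs had a Pearson correlation above 0 over the 36 libraries, with a median of 0.35. The strongest were Slc5a1 with Slc5a8 (0.81), Slc5a12 with Slc2a2 (0.76) and Slc5a8 with Slc5a12 (0.71). Slc5a2 correlated weakly with the rest, between -0.21 with Slc5a10 and 0.31 with Slc5a11. Slc2a1 was negative with 4 of the others, the lowest being -0.34 with Slc2a2. These values come from mice that share libraries, depth and dissection, and are a description.

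**Figure D5:**
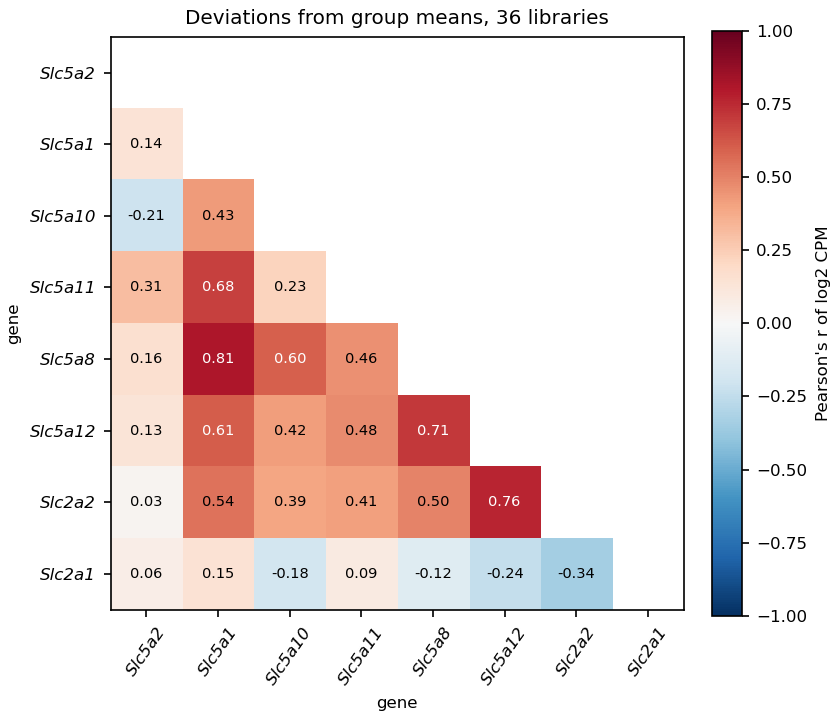
Pearson's r between the carriers over 36 libraries, from log2 CPM with the mean of each of the 12 groups removed; each square is a pair. Slc5a1 and Slc5a8 have the highest value, 0.81, and Slc2a1 and Slc2a2 the lowest, -0.34.

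The genes whose log2 CPM followed a carrier most closely over the 36 libraries differed from carrier to carrier, and the libraries share age and genotype. For Slc5a2 these were Slc34a3 (r = 0.96) and Dmgdh (0.94), and with the mean of each age removed Slc34a3 (0.92), Egf (0.90) and Dmgdh (0.89). The ratio of Slc5a2 to Slc34a3 RPKM was 9.36 to 11.0 in WT, 9.72 to 10.03 in Pkd1-RC/RC and 10.1 to 11.0 in Pkhd1-/- mice at P12, and 4.32 to 6.88 in Digenic mice. Slc5a10 was closest to its opposite-strand neighbour Fam83g, at 0.96 and, without age, 0.92, and the next were Cyp4a10 (0.80) and Prss23os (0.78). Slc5a1 was closest to the brush-border protease gene Mep1a (0.93), then Slc3a1 (0.93) and Asah2 (0.92), and Slc5a11 to Mep1b (0.85), Cyp2j11 (0.84) and Cyp2j5 (0.84). Slc5a8 was closest to Chpt1 (0.89), Entpd5 (0.88) and Arhgap32 (0.87), and Slc5a12 to Acad11 (0.96), Siae (0.96) and Etfdh (0.95). Slc2a2 was closest to Kynu (0.94), Dab2 (0.93) and Slc18b1 (0.92). Slc2a1 followed another kind of gene: Slco2a1 (0.89), Epn3 (0.86) and Zdhhc14 (0.85), and with age removed the sodium channel subunit gene Scnn1a (0.80), Ppl (0.80) and Tspan33 (0.79). With age removed, the closest to Slc5a1 and Slc5a8 were Mep1a (0.85) and Acsm5 (0.89), each followed by Dpp4 (0.84 and 0.86), those to Slc5a11 and Slc5a12 were Car4 (0.86) and A1cf (0.85), and that to Slc2a2 was again Kynu (0.87).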

How the data were processed

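Whole-kidney RNA was sequenced in 36 libraries, as 150 bp paired-end reads per the labels' protocols. Per the submitters' processing notes, the authors used MAP-RSeq 2.1.0, TopHat2, Bowtie, featureCounts, edgeR and the mm10 build. Per the file headers, the deposited table gives raw counts per gene and library, gene length, and the authors' log2 fold changes for each mutant against WT. Counts were the input of every test here; 36 normalized columns were not used.

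Counts were tested with edgeR 4.0.16 in R 4.3.3 (filterByExpr, TMM, robust quasi-likelihood), with the 12 libraries of an age in 1 fit, and all 36 libraries in 1 fit for age contrasts and changes of effect. Calls required a p under 0.05 after Benjamini-Hochberg adjustment across every gene in the fit. P-values measure the spread between these mice. The code was tested on simulated data. RPKM used the deposited exon length, and log2 CPM a prior count of 2. Alternatives were DESeq2 1.42.0, other size factors, no filter, a replicate block, a sex term (from Xist and Y-linked genes, which disagree with the sex in the header of 3 libraries), removal of a length trend, the fit of all 36 libraries, and each library left out. Leaving out libraries with adrenal markers over 40 RPKM was chosen after seeing the data.

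The carriers and lists were chosen with earlier results of these data known. Named were the 8 carriers, from each list the 4 genes with the smallest adjusted p in Digenic against WT at P12, Pdzk1ip1 and Hnf4a, and the 3 genes most correlated with each carrier among genes whose mean log2 CPM was 3 or more. Neighbours, Aqp2 and list genes called at P3 were chosen after their values were seen. So were Slc22a8, Lrp2, Atp6v1b1, Slc4a1, Slc26a4, Foxi1 and Slc2a5, which lie outside that rule. Of the listed marker genes, those absent from the table were not analysed here. Some genes that this rule would name are not reported here.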

Additional observations from a re-analysis of the deposited data

Results flagged for a closer look

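The Digenic change exceeded the sum of the single-mutant changes for Slc5a2 at P12, by -2.54 on the log2 scale. The Digenic difference from WT also changed between P0 and P12: by -2.20 for Slc5a2, by 1.88 for Slc5a10 and by 1.13 for Slc5a11. Each rests on a test of the difference itself in edgeR, and each stayed on its side of the threshold in every alternative run. The run without adrenal libraries leaves Digenic P12 mouse 1 alone in its group.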

How the results depend on the processing

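Of the 89 log2 fold changes of carriers examined across alternatives, 32 were called and 19 of those stayed called in every alternative run; none of the 32 changed sign. Replicate numbers did not pair the mice: correlations of deviations between same-numbered mice ran from -0.70 to 0.60. The replicate block changed the number of carriers called from 0 to 1 for Digenic against WT at P3, from 3 to 1 for Digenic against Pkd1-RC/RC at P12, from 5 to 3 for WT P3 against P0, from 7 to 4 for WT P12 against P3 and from 6 to 4 for WT P12 against P0, and gave -0.00275 for the change of the Digenic effect on Slc5a8, uncalled at 0.00.

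DESeq2 raised the number called at P0 from 0 to 2 for Digenic against WT and from 0 to 1 against each single mutant. At P3 it raised it from 0 to 3 against WT, 0 to 2 against Pkd1-RC/RC, 1 to 2 against Pkhd1-/-, and 0 to 1 for Pkd1-RC/RC against WT and for the departure from the sum. Of all genes in Digenic against WT, where edgeR called 121 at P0 and 487 at P3, DESeq2 called 704 and 1118. At P12 it added Slc2a1 against WT, Slc5a11 against Pkd1-RC/RC and Slc2a2 against Pkhd1-/-, and it lost Slc5a10 for WT P12 against P0. The fit of all 36 libraries gave 3, 2 and 1 at P0 for Digenic against WT, Pkd1-RC/RC and Pkhd1-/-, and 2 instead of 4 against Pkhd1-/- at P12. A sex term gave 1 instead of 0 against WT at P0, 0 instead of 1 against Pkhd1-/- at P3 and 1 instead of 3 against Pkd1-RC/RC at P12, where removing the length trend also gave 1; at P12 the sex term added Slc2a1 against WT and lost Slc5a12 against Pkhd1-/-. RLE size factors and no filter also added Slc2a1 against WT at P12, and RLE lost Slc5a10 for WT P12 against P0. Removing the length trend lost Slc5a10 there too, and added Slc5a11 for WT P3 against P0 and Slc2a2 against Pkhd1-/- at P12. Leaving out adrenal libraries gave 1 instead of 0 against WT at P3, and lost Slc5a12 for WT P3 against P0. At P12 it leaves Digenic mouse 1 alone in its group. Slc5a8, uncalled over all mice, turned there to 0.038 and 0.047 against WT and Pkhd1-/- mice.

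Leaving out 1 mouse at a time gave 0 to 1 called for Digenic against Pkhd1-/- at P0, at P3 0 to 2 against WT, 0 to 1 against Pkd1-RC/RC and 0 to 1 against Pkhd1-/-, and at P12 1 to 3 against Pkd1-RC/RC, 2 to 4 against Pkhd1-/- and 1 to 2 for the departure from the sum; it gave 2 to 5 for WT P3 against P0 and 4 to 7 for WT P12 against P3. Uncalled values that changed sign in these fits were Slc5a8 (-0.23 to 0.021 at P0, -0.044 to 0.62 at P3), Slc5a12 at P3 (-0.59 to 0.12) and Slc5a1 (-0.028 to 0.16), Slc5a11 (-0.025 to 0.25) and Slc2a2 (-0.33 to 0.0082) at P12, all Digenic against WT; Slc5a2 at P3 (-0.12 to 0.19) and Slc5a10 at P12 (-0.12 to 0.69) in Pkd1-RC/RC against WT; Slc5a11 in Digenic against Pkhd1-/- at P12 (-0.043 to 0.22); and the change of the Digenic effect on Slc5a8 (-0.13 to 0.10). Beyond fewer mice or genes in a fit, the cause of these shifts was not tested. With 3 mice a group, precision was limited by the spread between mice more than by depth: the carriers had at least 548 counts in every library.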

Other observations

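Among Pkd1-RC/RC mice at P12, mouse 3 had the lowest Slc5a2 (68.0 RPKM) and the highest Slc5a10 (55.9 RPKM) of its group, and its Aqp2 level was 629 RPKM, against 241 and 215 RPKM in mice 1 and 2. Its Slc34a3 level was 6.78 RPKM, against 12.6 and 8.19 RPKM. Its Slc2a5 level, the gene of the fructose carrier GLUT5, was 19.7 RPKM against 12.5 and 13.5 RPKM. In Digenic against WT mice at P12 Slc2a5 lay in the other direction, at -0.38 on the log2 scale, and was not called (edgeR, adjusted p = 0.0743).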
